A study of Mus musculus with 16 samples.

Results

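Genes of the lysosome and of the vacuolar ATPase, the proton pump that acidifies it, were followed in liver of KK-Ay mice fed a normal diet or the same diet with a maple syrup extract (MSE). The list holds 34 genes: 14 subunits of the pump, 2 accessory subunits, 13 hydrolases, the precursor of activator proteins Psap, the membrane glycoproteins Lamp1 and Lamp2, the channel Mcoln1 and the transcription factor Tfeb. They were matched by symbol or synonym to probe sets that name a single gene, and 33 of the 34 were measured among 18194 genes. Atp6v0c, the proteolipid of the pump's membrane ring, had no such probe set and is named only. Where a gene had several probe sets, the brightest by mean over the 16 arrays stood for it and the others served as a check. The 33 genes have 78 probe sets. The choice of probe sets used the gene names and levels, not the diet difference. The genes themselves were chosen with earlier results of these data known.

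KK-Ay mice are obese and diabetic through the yellow agouti allele on the KK background, and all 16 mice were of this strain, so no lean control was part of the comparison. The mice were males bought at 4 weeks of age and 11 weeks old at sampling, 8 for each diet, and each was housed alone. The diets followed the AIN-93G formula, without addition or with 0.1% MSE, and were pair-fed for 43 days. Liver was taken after 16 h without food, and each of the 16 arrays holds the RNA of 1 mouse. The design asks what the extract does to transcript levels in the liver of a diabetic mouse.

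The lysosome is the acidic compartment in which cells break down material brought in from outside or delivered by autophagy. Its pump has a V1 sector in the cytosol, which hydrolyses ATP, and a V0 sector in the membrane, which carries protons, joined by stalks; the low pH it makes is needed by the hydrolases. The transcription factor TFEB raises many of these genes together by binding an E-box element in their promoters, and in liver it is known as a regulator of the response to fasting.

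The deposited values have an unusual scale, and this sets how every size below reads. Array medians lay between 6.0387 and 6.0388 log2 units, and the median SD of a gene over the 16 arrays was 5.63 millionths of a log2 unit. Usual array summaries vary far more between animals, so the differences cannot be read as fold changes. Values of a gene are therefore given as deviations from its own mean over the 16 mice, in millionths of a log2 unit (1e-06), and differences as standardized differences, the MSE mean minus the normal-diet mean divided by the pooled SD within diets. Each MSE mouse was also set against each normal-diet mouse, and the number of these 64 pairs that run in a direction is given. Hepatocyte markers were at the top of the arrays, as the label liver implies: Alb (albumin) had the highest level of all genes on every array, and the lowest of the 8 measured markers, Pck1, stood at the 99.5th percentile. In whole liver, fewer cells of a type and less RNA per cell cannot be told apart.

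Promoter sequences are shown first, since the shared E-box is the element through which TFEB is known to act on such genes. RefSeq windows from 250 bases before to 50 after a start (GRCm38.p6) were at hand for 27 of the 34 genes. The element was searched as CACGTG, as TCACGTGA and in the form of the CLEAR element with 1 more base at each end. Each reads the same on both strands, and each longer form contains the shorter. TCACGTGA was in a window of 7 of the 27 genes (25.9%), against 1.12% of 27025 genes with a window. CACGTG was in 13 of the 27 (48.1%), against 8.09%, and the longest form was in 0 of the 27, against 0.37%. The 7 stretches with TCACGTGA, in capitals, are printed from 5′ to 3′ on the strand of the gene, followed by the 120 bases before the start of Atp6v1d and of Lipa, which hold no match and are the subunit and the hydrolase with the single probe set farthest from 0 in their classes:
Atp6v0d1, chr8:105566050-105566079, minus strand: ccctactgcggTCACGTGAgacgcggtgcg
Atp6v0e, chr17:26676387-26676416, plus strand: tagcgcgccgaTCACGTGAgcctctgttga
Atp6v1a, chr16:44139358-44139417, minus strand: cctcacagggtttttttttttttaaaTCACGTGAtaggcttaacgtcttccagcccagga
Ctsa, chr2:164833734-164833772, plus strand: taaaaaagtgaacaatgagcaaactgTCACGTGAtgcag
Ctsd, chr7:142387893-142387952, minus strand: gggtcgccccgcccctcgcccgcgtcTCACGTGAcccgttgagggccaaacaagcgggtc
Gla, chrX:134601200-134601255, minus strand: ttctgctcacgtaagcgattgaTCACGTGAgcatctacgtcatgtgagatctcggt
Mcoln1, chr8:3500447-3500506, plus strand: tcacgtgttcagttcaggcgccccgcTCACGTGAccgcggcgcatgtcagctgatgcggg
Atp6v1d, chr12:78861639-78861758, minus strand: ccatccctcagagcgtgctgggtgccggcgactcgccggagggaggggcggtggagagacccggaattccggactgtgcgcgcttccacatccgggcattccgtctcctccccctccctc
Lipa, chr19:34527475-34527594, minus strand: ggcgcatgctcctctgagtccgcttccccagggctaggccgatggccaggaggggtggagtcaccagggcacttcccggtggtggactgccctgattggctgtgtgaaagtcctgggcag

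No member passed the test for a diet difference. In the limma fit over all 18194 genes, 0 of the 33 members had an adjusted p under 0.05, as did 0% of all genes, and the lowest adjusted p of a member was 0.67. At an unadjusted p under 0.05 the fit held 1 member, Atp6v1g1, which was lower with MSE. Of all genes 6.66% were past that p, 4.07% in the lower and 2.59% in the higher direction. The exact permutation test over all 12870 regroupings of 8 and 8 mice, unadjusted, gave Atp6v1g1 p = 0.0263.

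The pump subunits lay mostly on the lower side with MSE and the hydrolases on both. Of the 13 measured subunits, 11 had a lower mean with MSE and 2 a higher one, with a median standardized difference of -0.38. Of the 13 hydrolases, 7 were lower and 6 higher, with a median of -0.22. Over all genes 51.7% were lower, with a median of -0.02, and among genes at or above the median level, where 31 of the 33 members lie, 55.8% were lower, with a median of -0.08. Counted by probe set, 27 of 35 for subunits and 14 of 28 for hydrolases were lower. The difference between subunits and hydrolases was not tested. The direction of the subunits depends on the scaling: after quantile normalization all 8 V1 subunits were higher. Of the 5 V0 subunits 4 were then lower and 1 without a difference, with a median of -0.066 SDs. Of all genes with a spread 50.5% were lower there. The subunit median was then 0.42 SDs and the median of 12 hydrolases -0.071 SDs, so the contrast between the classes turned. Ctsl, the lowest hydrolase as deposited, had no spread there and is left out of that median. After centring on array medians 10 of 13 subunits and 12 of 13 hydrolases were higher, but so were 92.6% of all genes, whose median moved to 0.42 SDs, against medians of 0.35 for subunits and 0.41 for hydrolases. The counts also rest on MSE replicates 1 and 3, which had the lowest scores of the MSE mice in both classes: without them 8 of 13 subunits and 3 of 13 hydrolases were lower, and 13 of 33 members in place of 22. These mice were picked after their values were seen, and for being low, so leaving them out moves the counts that way by construction.

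**Figure D1:**
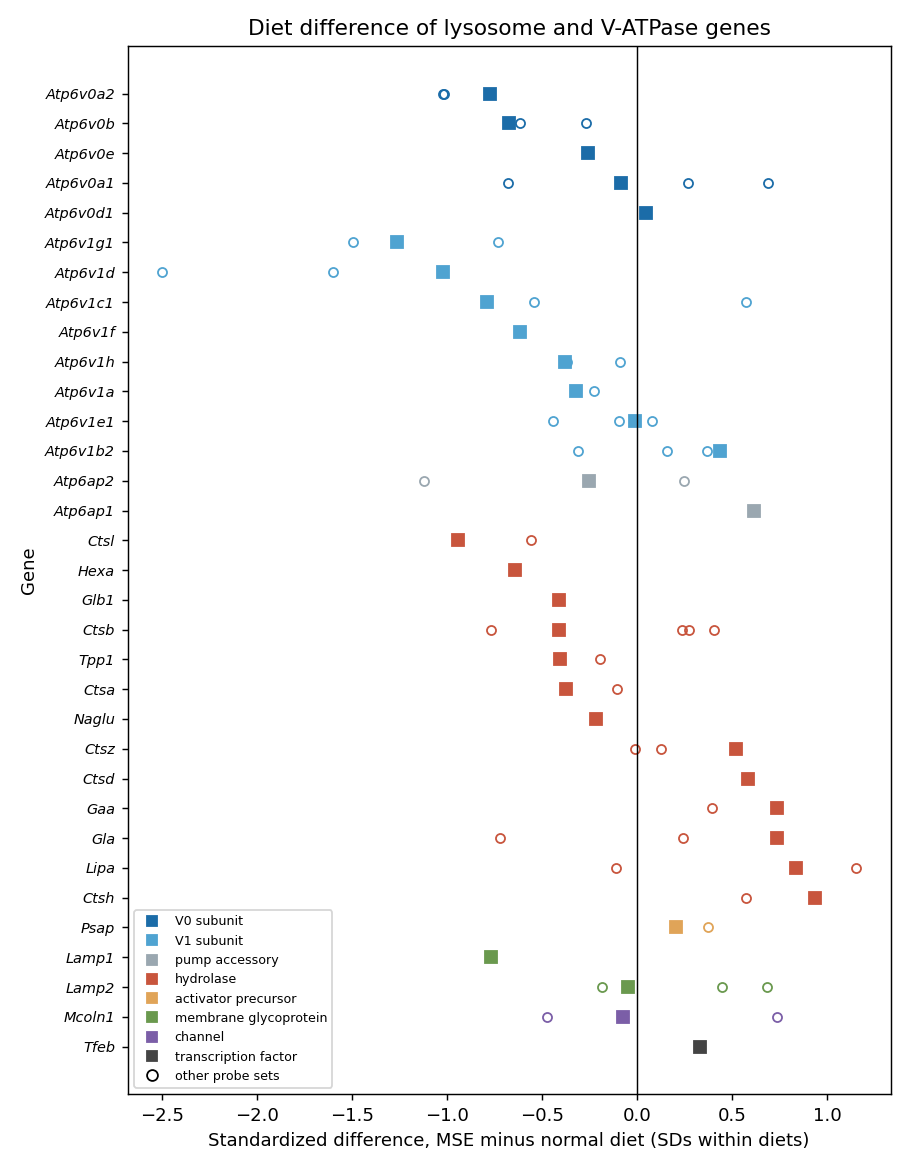
Standardized difference between diets (MSE minus normal diet, in SDs within diets, 8 mice per diet) for each of the 33 genes. Squares show the probe set with the highest mean, open circles the other probe sets of the gene, and colours the role; 11 of the 13 pump subunits and 7 of the 13 hydrolases lie left of 0 in the values as deposited, while all 8 V1 subunits were higher after quantile normalization (not drawn).

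In the V1 sector 7 of 8 subunits were lower with MSE in the values as deposited, while all 8 were higher after quantile normalization, with a median of 0.61 SDs. In the values as deposited, Atp6v1d and Atp6v1g1 stood farthest from 0. Atp6v1d encodes subunit D, the central rotor shaft that couples ATP hydrolysis to the membrane ring, and Atp6v1g1 encodes subunit G1 of the peripheral stalks that hold the V1 head in place. For the probe set that stands for Atp6v1d, normal-diet mice ran from -125 through a median of 92.0 to 287 millionths of a log2 unit. MSE mice ran from -341 through -71.6 to 245 for the same probe set. The groups overlapped widely: 1 normal-diet mouse lay above all MSE mice and 3 MSE mice below all normal-diet mice. The difference was -156 ± 74.4 millionths (SE, n = 8 per diet), or -1.02 SDs, lower in 51 of 64 pairs, with a limma adjusted p of 0.755. After quantile normalization it was 1.08 SDs higher (limma adjusted p 0.599).

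All 3 probe sets of Atp6v1d were lower with MSE, and the probe sets with lower mean levels stood further apart. The second by mean level was 1.60 SDs lower, in 56 of 64 pairs, and 6 normal-diet mice lay above all MSE mice. The third ran from -6.17 through 14.9 to 32.7 millionths on the normal diet. On the MSE diet it ran from -30.8 through -15.8 to 4.39 millionths. Groups overlapped only in 1 normal-diet mouse and 2 MSE mice, with the MSE mouse lower in 62 of 64 pairs. The difference was -32.1 ± 6.25 millionths (SE, n = 8 per diet), or -2.50 SDs, with a limma adjusted p of 0.228 over 34958 probe sets and an unadjusted exact permutation p of 4.66e-04. Of all these probe sets 6.53% had an unadjusted limma p under 0.05, 3.9% in the lower direction, and 0% had an adjusted p under 0.05. The deviations of the 3 probe sets from their diet means correlated between mice at r = 0.65 to 0.71 (16 mice), where the median over 30406 pairs of probe sets of the same gene was 0.16. In the authors' deposited table, the false discovery rates of the 3 probe sets for lower expression with MSE are 4.84e-04, 6.21e-04 and 0.00891; how they were computed is not stated in the labels. In the authors' deposited table, 2.74% of all probe sets and 3.85% of the members' 78 probe sets have a rate under 0.05 for lower expression.

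Atp6v1g1 ran from -18.97 through 14.59 to 47.2 millionths on the normal diet. With MSE it ran from -50.8 through -17.7 to 15.04 millionths, and 4 MSE mice lay below all normal-diet mice. The difference was -28.2 ± 10.8 millionths (SE, n = 8 per diet), or -1.27 SDs, lower in 53 of 64 pairs, with a limma adjusted p of 0.67. The other probe sets of the gene were at -1.496 SDs, lower in 57 of 64 pairs, and at -0.73 SDs, and after quantile normalization the brightest probe set was 0.42 SDs higher. Between mice these probe sets followed each other less closely than those of Atp6v1d, at r = -0.04 to 0.28. Within diets the probe sets that stand for Atp6v1d and Atp6v1g1 correlated at r = 0.53 (16 mice).

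**Figure D2:**
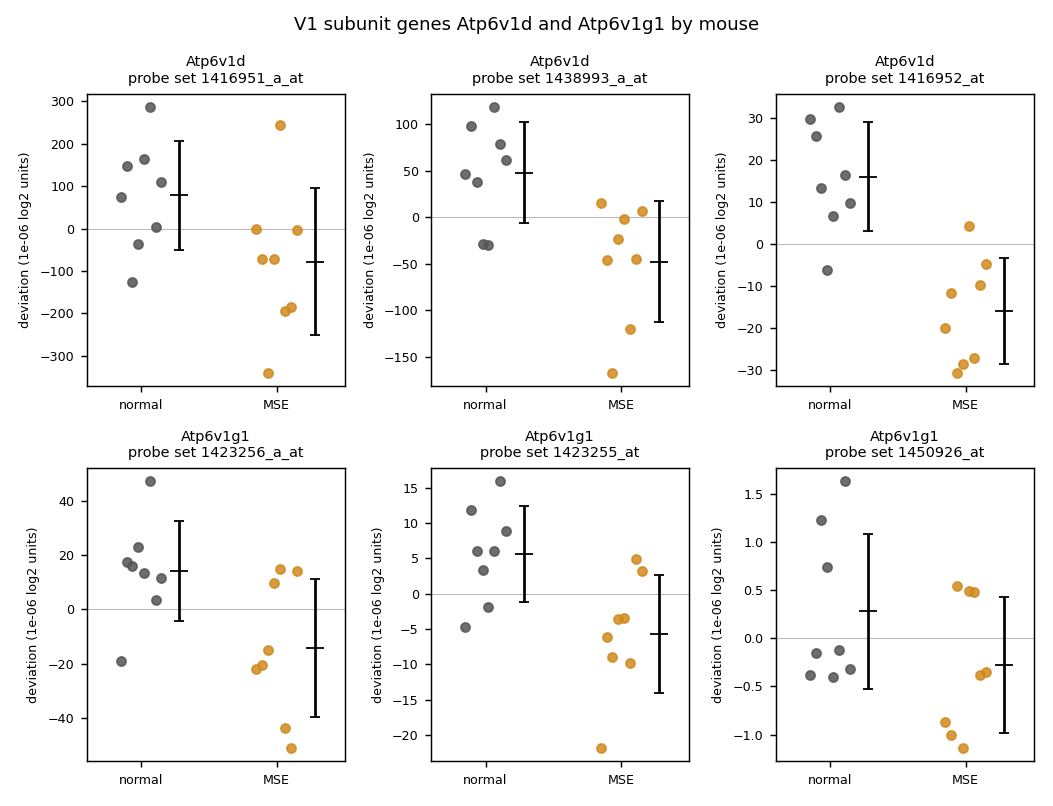
Deviations of each probe set of Atp6v1d and Atp6v1g1 from its own mean, in millionths of a log2 unit, for 8 normal-diet and 8 MSE mice. Points are mice, and bars give the mean and SD. For the third probe set of Atp6v1d, 7 of 8 normal-diet mice lie above all MSE mice in the values as deposited. The brightest probe set of each gene turned after quantile normalization (1.08 and 0.42 SDs, not drawn), and the others were not fitted after it.

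The remaining V1 subunits stood closer to 0. Atp6v1c1, subunit C that links the peripheral stalks to the V0 sector, ran from -5.06 through 2.30 to 8.34 millionths on the normal diet and from -12.7 through -1.42 to 6.69 with MSE. It was 0.79 SDs lower, in 46 of 64 pairs (limma adjusted p 0.839), but another of its probe sets was 0.57 SDs higher, and after quantile normalization it was at 0.38 SDs. Atp6v1f, subunit F of the central shaft, ran from -5.01 through 0.74 to 6.21 millionths on the normal diet and from -4.56 through -0.07 to 1.70 with MSE. It was 0.62 SDs lower (limma adjusted p 0.902), and 3 normal-diet mice lay above all MSE mice, but after quantile normalization it was at 0.88 SDs. The catalytic subunit A gene, Atp6v1a, was at -0.32 SDs, Atp6v1h, for the regulatory subunit H, at -0.38 SDs and Atp6v1e1, for a peripheral stalk subunit, at -0.01 SDs. After quantile normalization these were at 0.60, 0.61 and 0.67 SDs. Atp6v1b2, for the B2 subunit that forms the V1 head with subunit A, was the only V1 member on the higher side in the values as deposited, at 0.44 SDs.

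In the V0 sector 4 of 5 measured subunits were lower with MSE in the values as deposited, and 2 of 5 without MSE replicates 1 and 3. Atp6v0a2, an isoform of the membrane subunit a, ran from -25.3 through 13.4 to 21.6 millionths on the normal diet. With MSE it ran from -24.9 through -4.23 to 16.7 millionths, within the range of the normal-diet mice. The difference was 0.78 SDs in the lower direction, in 46 of 64 pairs (limma adjusted p 0.844), and its other probe sets were both 1.02 SDs lower. Atp6v0b, for a proteolipid of the membrane ring, ran from -41.4 through 4.59 to 168 millionths on the normal diet and from -200.5 through -3.80 to 48.2 with MSE, where the lowest mouse stood far from the others. It was 0.68 SDs lower, in 38 of 64 pairs (limma adjusted p 0.874). After quantile normalization Atp6v0a2 was without a difference and Atp6v0b at -0.02 SDs. Centring on array medians put 4 of 5 V0 subunits higher, beside 92.6% of all genes. The isoform gene Atp6v0a1 was at -0.08 SDs, Atp6v0e at -0.26 SDs and Atp6v0d1, whose product links the ring to the central shaft, at 0.05 SDs. The accessory subunits split, with Atp6ap1 at 0.62 SDs and Atp6ap2, also known as the prorenin receptor, at -0.25 SDs. Another probe set of Atp6ap2 was 1.12 SDs lower, in 56 of 64 pairs.

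Among the hydrolases, Lipa and Ctsh were farthest to the higher side. Lipa encodes lysosomal acid lipase, which splits the cholesteryl esters and triglycerides that reach the lysosome. It ran from -58.0 through -9.30 to 34.04 millionths on the normal diet. With MSE it ran from -24.7 through 5.09 to 68.5 millionths, and 3 MSE mice lay above all normal-diet mice. The difference was 27.1 ± 15.8 millionths (SE, n = 8 per diet), or 0.84 SDs, higher in 45 of 64 pairs, with a limma adjusted p of 0.815. Lipa was at 1.05 SDs after quantile normalization. It was at 1.15 SDs after centring on array medians, where 92.6% of all genes were higher. Its other probe sets disagreed: the third by mean level was 1.15 SDs higher, in 52 of 64 pairs, and the second was at -0.11 SDs. For the third, MSE replicates 1 to 4 lay at 200 to 304 millionths and replicates 5 to 8 at -91.5 to -11.1. Normal-diet mice ran from -351 through -75.1 to 207 there. The brightest split the same way, at 9.65 to 68.5 and at -24.7 to 0.53 millionths. In the authors' deposited table, the third has a false discovery rate of 2.01e-04 for higher expression with MSE. In the authors' deposited table, 1 of the members' 78 probe sets (1.28%) is under 0.05 in that direction, against 1.98% of all probe sets.

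Ctsh encodes cathepsin H, a cysteine aminopeptidase. It ran from -57.3 through -26.5 to 30.5 millionths on the normal diet. With MSE it ran from -21.2 through 18.99 to 43.9 millionths, and all 8 MSE mice lay above the normal-diet median while 5 normal-diet mice lay below all MSE mice. The difference was 27.0 ± 14.04 millionths (SE, n = 8 per diet), or 0.94 SDs, higher in 50 of 64 pairs, with a limma adjusted p of 0.789. Its other probe set was 0.57 SDs higher, and after quantile normalization the brightest was at -0.29 SDs.

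Ctsl, for the cysteine protease cathepsin L, stood farthest to the lower side. It ran from -33.99 through 8.34 to 99.5 millionths on the normal diet and from -99.9 through -13.9 to 13.1 with MSE. The difference was -41.9 ± 21.6 millionths (SE, n = 8 per diet), or -0.95 SDs, lower in 44 of 64 pairs, with a limma adjusted p of 0.789. MSE replicate 3 stood apart at the bottom of its group, and 3 normal-diet mice lay above all MSE mice. The other probe set of Ctsl was 0.56 SDs lower.

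**Figure D3:**
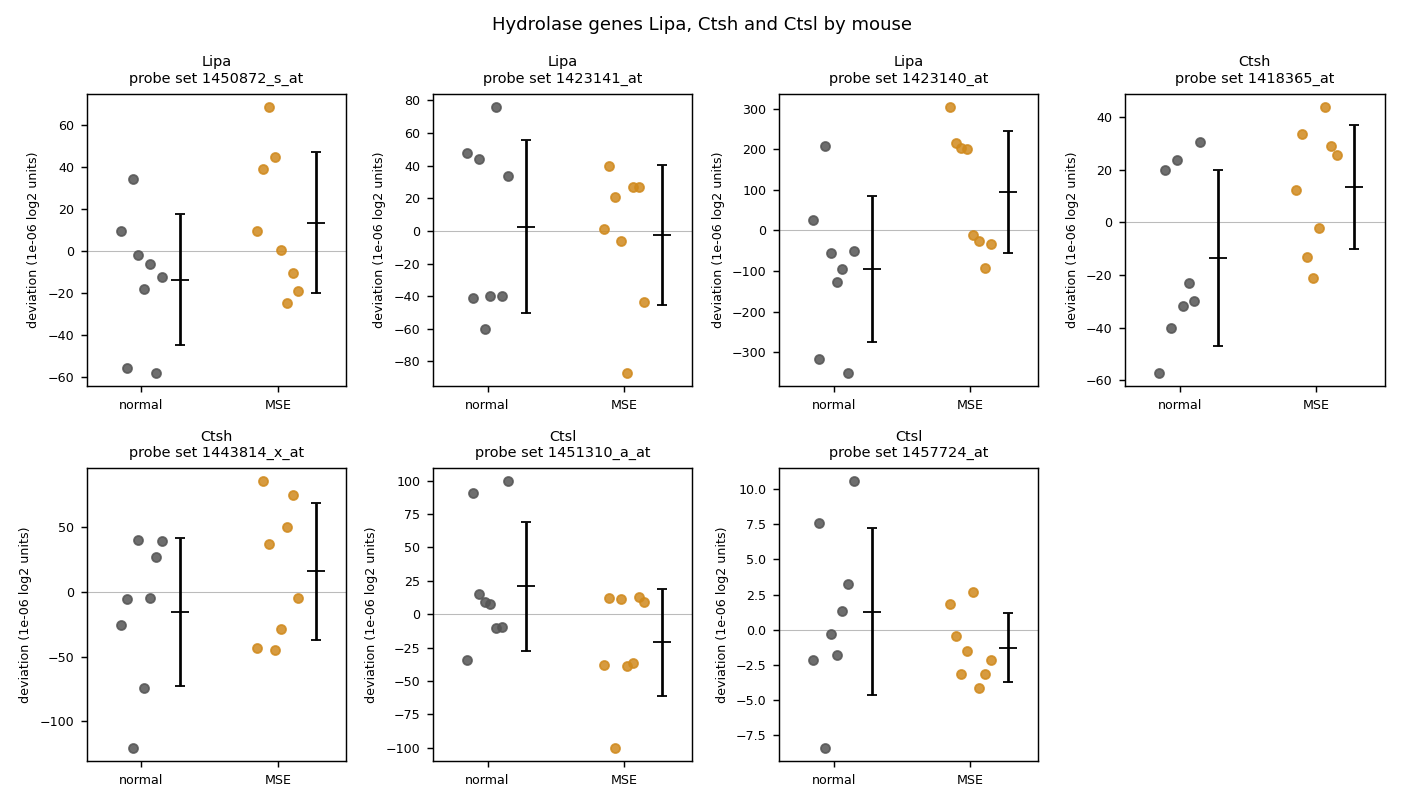
Deviations of each probe set of Lipa, Ctsh and Ctsl from its own mean, in millionths of a log2 unit, for 8 normal-diet and 8 MSE mice. Points are mice, and bars give the mean and SD; the diets overlap in every panel, and the probe sets of Lipa differ in direction, from -0.11 to 1.15 SDs.

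The other hydrolases stood closer to 0. The glycosidase genes Gla (alpha-galactosidase) and Gaa (acid alpha-glucosidase, which breaks down lysosomal glycogen) were 0.74 and 0.73 SDs higher, each in 46 of 64 pairs, with limma adjusted p of 0.852 and 0.863. Gla ran from -20.8 through -2.82 to 7.10 millionths on the normal diet and from -15.2 through 6.02 to 22.2 with MSE, so that 4 MSE mice lay above all normal-diet mice. Gaa ran from -3.86 through -1.31 to 2.26 millionths on the normal diet and from -3.84 through 1.605 to 4.09 with MSE. The other probe sets of Gla were at 0.24 and -0.72 SDs. Ctsd, for the aspartic protease cathepsin D, ran from -6.93 through -1.03 to 2.87 millionths on the normal diet and from -4.47 through -0.24 to 11.1 with MSE, a difference of 0.58 SDs (limma adjusted p 0.914). Ctsz, for another cathepsin, was at 0.52 SDs. On the lower side were Hexa, for the alpha subunit of beta-hexosaminidase, at -0.64 SDs, Glb1 (beta-galactosidase) and Ctsb (cathepsin B) at -0.41 SDs each, Tpp1 (tripeptidyl peptidase) at -0.40 SDs, Ctsa (cathepsin A) at -0.37 SDs and Naglu, an enzyme of heparan sulfate breakdown, at -0.22 SDs. Of the 5 probe sets of Ctsb, 3 were higher and 2 lower.

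Membrane proteins and the regulator showed no common direction. Lamp1, an abundant glycoprotein of the lysosomal membrane, ran from -1.21 through 1.23 to 2.83 millionths on the normal diet and from -5.88 through -0.70 to 2.32 with MSE. It was 0.77 SDs lower, in 46 of 64 pairs (limma adjusted p 0.852), and 4 MSE mice lay below all normal-diet mice. Its relative Lamp2 was at -0.05 SDs, with probe sets from -0.18 to 0.69 SDs. Mcoln1, a calcium channel of the lysosomal membrane, ran from -14.7 through -0.46 to 14.8 millionths on the normal diet and from -17.0 through -2.23 to 15.9 with MSE. That is a difference of -0.07 SDs, and its 95% confidence interval of -11.8 to 10.3 millionths spans about a pooled SD of 10.6 millionths to either side. The other probe sets of Mcoln1 were at -0.47 and 0.74 SDs. Tfeb ran from -3.59 through -1.67 to 4.10 millionths on the normal diet and from -3.51 through 1.49 to 4.45 with MSE, a difference of 0.33 SDs (limma adjusted p 0.968) with a 95% confidence interval of -2.12 to 4.00 millionths. Quantile normalization put Tfeb at -0.97 SDs and Ctsd at -0.82 SDs, and centring on array medians put Lamp1 at 0.36 SDs. Psap, whose product is cut into activators of sphingolipid breakdown, was at 0.20 SDs.

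The 7 genes with TCACGTGA in their window did not stand on a side: 3 were higher and 4 lower with MSE, with a median of -0.07 SDs and a range from -0.37 to 0.74. The 19 measured genes with a window and no match had 13 lower and 6 higher, with a median of -0.22 SDs and a range from -1.02 to 0.84. The remaining 7 measured genes had no window in the table. A match describes letters in a window and not a bound site.

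Between mice of the same diet, pairs of members had on balance a higher correlation than pairs of all genes. With each value taken as its deviation from the diet mean, the median Pearson r over the 528 pairs of members was 0.22, with 380 pairs above 0. The median was 0.35 over 78 pairs of hydrolases, 0.27 over 78 pairs of pump subunits and 0.22 over 169 pairs of a subunit and a hydrolase. Over all pairs of the 18194 genes the median was 0.0025, and over pairs of genes at or above the median level it was 0.0415. Centring each array on the median deviation of all genes left the median over members at 0.22, but could hardly have moved it. The offsets taken out ran from -0.52 to 0.31 millionths, where the median pooled SD of a member was 6.50. These r are descriptions over 16 mice that share their arrays, and no p is given for them. The pairs with the highest r were Tpp1 with Atp6v1b2 at 0.81, Gaa with Atp6v0b at 0.81 and Naglu with Ctsa at 0.79. Tfeb followed Ctsa and Naglu most closely, at 0.59 with each, and had a median r of 0.11 with the 32 others.

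A few members had a negative median r with the rest. The median r with the 32 other members was -0.27 for Atp6ap2, -0.22 for Atp6v1a and -0.17 for Lipa, while Atp6v1e1 at 0.44, Atp6v1b2 at 0.44 and Ctsl at 0.43 had the highest medians. These depend on the probe set as well: other probe sets gave 0.33, -0.31 and -0.15 for Atp6v1e1. They gave 0.26, 0.025 and -0.17 for Atp6v1b2 and 0.14 for Ctsl. Lipa and Atp6v1a correlated with each other at 0.74, and Lipa with Tpp1 at -0.67. For Atp6v1a and Atp6ap2 this depended on the probe set, since another probe set of Atp6v1a had a median r of 0.26 with the other members and another of Atp6ap2 had 0.39. For Lipa the third probe set had a median of -0.22, and the second of 0.0045. Atp6v1d and Atp6v1g1, which stood farthest from 0 between diets, had medians near 0 for their brightest probe sets, at -0.055 and 0.027. The other probe sets gave 0.039 and 0.056 for Atp6v1d, but 0.31 and -0.12 for Atp6v1g1.

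**Figure D4:**
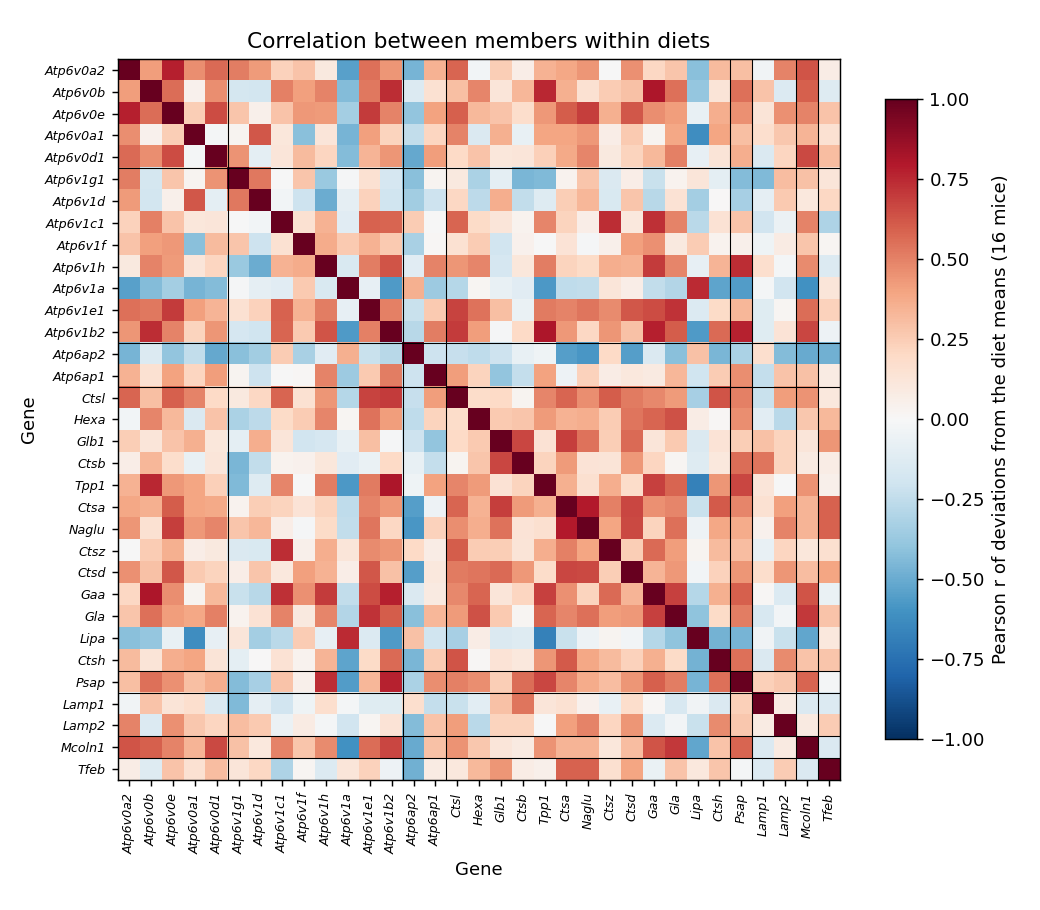
Pearson r between the 33 members over 16 mice, from deviations from the diet means, ordered by role (black lines separate roles). Red cells are positive and blue cells negative; most cells are red, with a median of 0.22, and the rows of Atp6ap2, Atp6v1a and Lipa are mostly blue.

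To follow single mice, each gene was scaled to z values over the 16 mice and averaged over the genes of a class, which gives each mouse a score. For pump subunits the score ran from -0.58 through 0.24 to 0.94 on the normal diet and from -1.28 through -0.03 to 0.40 with MSE, lower in 45 of 64 pairs. For hydrolases the score ran from -0.41 through -0.03 to 0.70 on the normal diet and from -0.92 through 0.14 to 1.32 with MSE, lower in 28 of 64 pairs. The SD of the hydrolase score was 0.34 on the normal diet and 0.75 with MSE. MSE replicates 1 and 3 had the lowest pump scores, -1.28 and -0.81, and also the lowest hydrolase scores, -0.92 and -0.82. The subunit score minus the hydrolase score averaged -0.24 ± 0.48 (SD, n = 8) with MSE, against 0.24 ± 0.38 in 8 normal-diet mice, and was lower with MSE in 48 of 64 pairs. This holds for the values as deposited, since after quantile normalization the subunit median lay above the hydrolase median. No p is given for these scores, since the genes were chosen with earlier results of these data known.

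**Figure D5:**
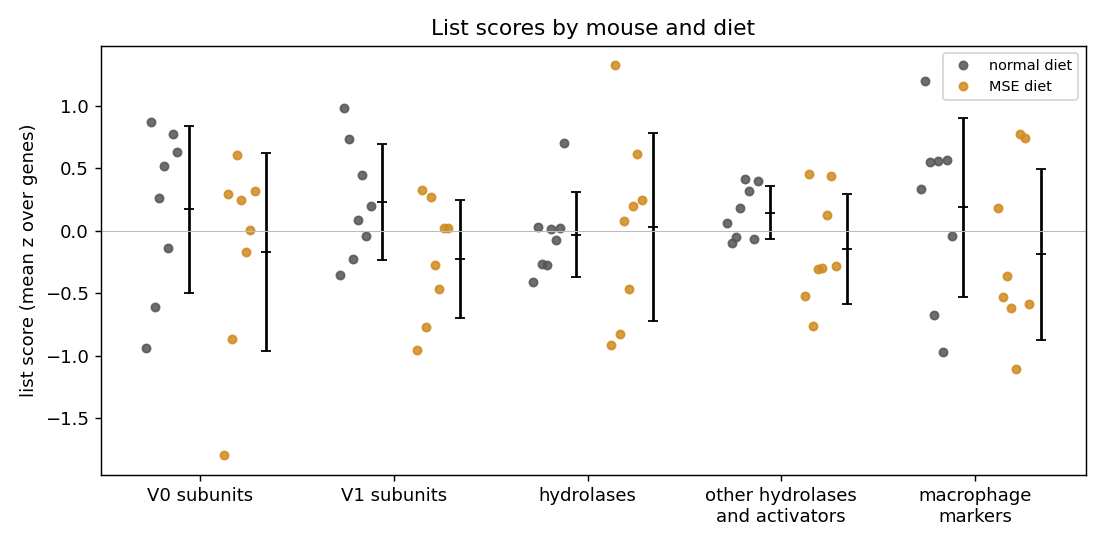
List scores (mean z over the genes of a list) for each of 8 normal-diet and 8 MSE mice. Points are mice, and bars give the mean and SD; in the values as deposited the V1 subunit score was lower with MSE in 47 of 64 pairs and the hydrolase score in 28 of 64, while all 8 V1 subunits were higher after quantile normalization.

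Other genes of the pathway were more often lower than higher in the values as deposited, beside 51.7% lower over all genes and 55.8% at or above the median level, and 0 of them had a limma adjusted p under 0.05. Of 16 measured genes for other pump isoforms and assembly factors, 11 were lower with MSE and 5 higher, with a median of -0.29 SDs. Among them Wdr7, a subunit of the rabconnectin-3 complex that helps V1 and V0 to assemble, had the widest separation. It ran from -0.15 through 8.87 to 22.8 millionths on the normal diet. With MSE it ran from -17.3 through -9.82 to -0.92 millionths, so that all 8 MSE mice lay below all 8 normal-diet mice, as in 0.0257% of probe sets, while in 0.0172% all MSE mice lay above. The difference was -18.4 ± 2.95 millionths (SE, n = 8 per diet), or -3.06 SDs, with a limma adjusted p of 0.157 and an exact permutation p of 1.55e-04, the smallest these regroupings can give. It was at 0.18 SDs after quantile normalization and at -0.17 SDs after centring on array medians, and Wdr7 had a single probe set.

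Of 32 other lysosomal hydrolases and activators, 25 were lower and 7 higher, with a median of -0.27 SDs. At an unadjusted p under 0.05 were Sumf1, which activates the lysosomal sulfatases, at -1.30 SDs, Aga at -1.12 SDs and Galc, for galactosylceramidase, at 1.36 SDs, although only 1 of the 3 probe sets of Galc was higher. Of 27 genes of lysosomal membrane, transport and sorting, 16 were lower, with a median of -0.14 SDs. Igf2r, the receptor that sorts mannose 6-phosphate-tagged enzymes, was at -1.46 SDs, lower in 54 of 64 pairs, and Scarb2, the receptor that carries beta-glucocerebrosidase to lysosomes, at -1.30 SDs in 1 of its 2 probe sets, the other being higher. Of 21 genes for relatives of TFEB and the lysosomal mTORC1 machinery, 15 were lower, with a median of -0.24 SDs, and Rraga, for a Rag GTPase that recruits mTORC1 to lysosomes, was at -1.06 SDs. Of 32 autophagy genes 23 were lower, with a median of -0.22 SDs. Here Pik3c3, the lipid kinase that starts autophagosome formation, was at -1.51 SDs, in 56 of 64 pairs. Wipi1 was at -1.09 SDs, lower in 4 of its 6 probe sets, and Atg10 at 1.29 SDs. The limma adjusted p of these 9 genes ran from 0.606 to 0.74. At an unadjusted limma p under 0.05 they were 9.38% of the other hydrolases and activators and 7.41% of membrane, transport and sorting. They were 4.76% of the mTORC1 machinery list and 9.38% of autophagy, beside 6.66% of all genes. After quantile normalization 6 of the 9 turned: Galc and Atg10 both to -1.45 SDs, Igf2r to 0.38, Scarb2 to 0.48, Rraga to 0.25 and Wipi1 to 0.37. Centring on array medians turned Pik3c3 to 0.30, and with it Scarb2, Rraga and Wipi1.

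The list counts moved with the scaling and with a pair of mice. After quantile normalization the lower genes were 10 of 16 for pump isoforms and assembly factors, 11 of 32 for other hydrolases, 14 of 27 for membrane, transport and sorting, 7 of 21 for the mTORC1 machinery and 10 of 32 for autophagy. MSE replicates 1 and 3 were the lowest MSE mice in 4 of these 5 lists, with scores of -0.52 and -0.76 for other hydrolases, -0.79 and -0.56 for membrane, transport and sorting, -0.61 and -0.54 for the mTORC1 machinery and -1.04 and -0.35 for autophagy. Without them the lower genes were 12 of 16, 21 of 32, 10 of 27, 11 of 21 and 17 of 32 in the same order, beside 50.3% of all genes.

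Markers of macrophages, cells rich in lysosomes, were lower in 14 of 16 genes, with a median of -0.40 SDs and a score from -0.97 to 1.20 on the normal diet and from -1.11 to 0.77 with MSE. Neutrophil markers were lower in 7 of 7, with scores from -0.39 to 1.07 and from -0.78 to 0.93. Over all genes 51.7% were lower. After quantile normalization 4 of 16 macrophage and 5 of 7 neutrophil markers were lower, beside 50.5% of all genes with a spread. After centring on array medians these were 9 of 16 and 2 of 7, beside 7.39% of all genes. No marker was at 0, since the deposited scale starts well above it. Between mice, members and macrophage markers had a median r of 0.018 over 528 pairs, and members and hepatocyte markers 0.081 over 264 pairs. The part of these cells in the members' differences was not tested. Of the markers of sinusoidal endothelium 6 of 8 were higher, of stellate cells 6 of 8 and of bile ducts 4 of 5. At an unadjusted limma p under 0.05 were 4 of 8 endothelial markers (50%), beside 6.66% of all genes. Kdr (1.80 SDs), Fcgr2b (1.19) and Oit3 (1.06) were higher and Stab2 (-1.12) lower, with a lowest limma adjusted p of 0.488. Macrophage markers had 1 of 16 at that unadjusted p and bile duct markers 1 of 5. After quantile normalization 2 of 8 endothelial markers were past it, beside 8.76% of all genes. Hepatocyte markers were higher in 4 of 8, with 1 more without a difference. After quantile normalization the higher counts were 5 of 8 for endothelium, 2 of 8 for stellate cells and 2 of 5 for bile ducts. Hepatocyte markers then had no spread.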

How the data were processed

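Expression was measured on 16 arrays, 1 liver each. Per the labels' protocols, biotin-labelled cRNA was made from total RNA by in vitro transcription from the 3′ end. The authors deposited log2-like values for 45101 probe sets. Their base is inferred from the range, 5.05 to 14.6, and R 3.2.2 was used, per the submitters' processing notes. How they were summarized and normalized is not stated in the labels. A second deposited table holds the same values per diet (largest difference 0) and the authors' deposited false discovery rates, which exceed 1 for some probe sets. The precision is limited by the number of mice, since arrays hold no counts.

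Probe sets naming 1 gene in the platform annotation (34958) were used, 932 named several genes and 9211 were unlisted. The values were compared as deposited with limma 3.58.1, run in R 4.3.3 over all genes at once (two-sided, Benjamini-Hochberg adjustment, threshold 0.05), with no covariate, since the labels name no batch. The fit was tested on simulated data that had the means and spreads measured here. Python 3.11.15 was used for exact permutation tests, scores and plots. The labels call the samples biological replicates. The alternatives tried were centring on array medians, quantile normalization, array weights, limma-trend with robust estimation, only the genes at or above the median level, a replicate block, thresholds of adjusted p under 0.1 and unadjusted p under 0.05, the accessory subunits or Psap added to a class, the mean of a gene's probe sets, other probe sets and leaving out each mouse. Centring on the median deviation of all genes and leaving out both MSE replicates 1 and 3 were added after the data were seen.

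The members and lists were chosen with earlier results of these data known. Full values are given for the 6 pump genes and the 6 other members with the smallest limma p, and for Tfeb, Mcoln1, Lamp1, Lipa and Ctsd; of each other pathway list, up to 4 genes with an unadjusted p under 0.05 are named. Further probe sets, and single genes among them, were singled out after their values were seen.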

Additional observations from a re-analysis of the deposited data

Results flagged for a closer look

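For 7 of the 86 sets of 8 mice (a gene in a diet), the lowest or highest mouse stood apart: its gap to the nearest mouse, as a share of the set's range, passed Dixon's 95% limit. Chance gives about 1 in 20. Among MSE mice the ratio was 0.592 for Atp6v0a1 and 0.543 for Ctsl, where replicate 3 was low in both, 0.548 for Atp6v0b and 0.551 for Aga, where replicate 1 was low in both, and 0.546 for Atp6ap2, where replicate 2 was low. Among normal-diet mice it was 0.625 for Atp6v1h, where replicate 2 was high, and 0.602 for Atg10, where replicate 4 was high.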

How the results depend on the processing

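The count of members past an adjusted p of 0.05 was 0 under every alternative fit, and 0 at an adjusted p under 0.1. It was 1 at an unadjusted p under 0.05. The median pooled SD of a member was 6.50 millionths of a log2 unit. Centring on array medians took out array offsets from -103 to 35.6 millionths and put 92.6% of all genes higher. It left 29 of 33 members, 10 of 13 pump subunits and 12 of 13 hydrolases higher, with medians of 0.35 and 0.41 SDs, and turned Atp6v0a1 (0.39), Atp6v0a2 (0.027), Atp6v0e (0.29), Atp6v1a (0.41), Atp6v1c1 (0.28), Atp6v1e1 (0.43), Atp6v1f (0.37), Atp6v1h (0.35), Atp6ap2 (0.41), Ctsa (0.33), Ctsb (0.37), Hexa (0.12), Glb1 (0.30), Naglu (0.25), Tpp1 (0.41), Lamp1 (0.36), Lamp2 (0.38), Mcoln1 (0.38), Scarb2 (0.13), Rraga (0.085), Pik3c3 (0.30) and Wipi1 (0.082). Quantile normalization left 8 of 13 subunits higher, with a median of 0.42 SDs and a hydrolase median of -0.071, and turned Atp6v0d1 (-0.066), Atp6v1a (0.60), Atp6v1c1 (0.38), Atp6v1d (1.08), Atp6v1e1 (0.67), Atp6v1f (0.88), Atp6v1g1 (0.42), Atp6v1h (0.61), Atp6ap2 (0.67), Ctsd (-0.82), Ctsh (-0.29), Gla (-0.11), Hexa (0.93), Tpp1 (0.25), Tfeb (-0.97), Wdr7 (0.18), Galc (-1.45), Igf2r (0.38), Scarb2 (0.48), Rraga (0.25), Atg10 (-1.45) and Wipi1 (0.37). It left 3 members, Ctsl, Lamp1 and Lamp2, with no spread and no value. Array weights (0.13) and centring on the median deviation of all genes (0.0056) turned Atp6v1e1. The mean of a gene's probe sets turned Atp6v0a1 (0.22) and Ctsb (0.028) and put the hydrolase median at 0.028 SDs. Other probe sets went the other way for Atp6v0a1 (0.69 and 0.27), Atp6v1b2 (-0.31), Atp6v1c1 (0.57), Atp6v1e1 (0.077), Atp6ap2 (0.25), Ctsb (0.40, 0.24 and 0.27), Ctsz (-0.014), Lipa (-0.11), Gla (-0.72), Lamp2 (0.45 and 0.69) and Mcoln1 (0.74). Leaving out 1 mouse gave 1 to 4 pump subunits higher: 4 without normal-diet replicate 5 or MSE replicate 1, and 1 without normal-diet replicate 1 or MSE replicate 4 or 8. It gave 10 to 14 members and 6 hydrolases higher, with medians from -0.62 to -0.31 SDs for subunits and from -0.45 to -0.045 for hydrolases. The direction of these genes depended on single mice, over the ranges given: Atp6v0a1 (-0.52 to 0.18), Atp6v0d1 (-0.23 to 0.48), Atp6v0e (-0.51 to 0.055), Atp6v1a (-0.64 to 0.0012), Atp6v1e1 (-0.29 to 0.31), Atp6ap2 (-0.59 to 0.11), Psap (-0.041 to 0.55), Lamp2 (-0.45 to 0.24) and Mcoln1 (-0.32 to 0.16). Leaving out both MSE replicates 1 and 3, chosen after seeing the data, left 20 members, 5 subunits and 10 hydrolases higher and turned Atp6v0a1 (0.26), Atp6v0e (0.29), Atp6v1e1 (0.63), Ctsa (0.13), Glb1 (0.017), Naglu (0.16), Tpp1 (0.0015), Lamp2 (0.16) and Mcoln1 (0.32). The fit with the replicate number as a block left 0 members past the threshold and every member's direction as it was, and gave Wdr7 an adjusted p of 0.0435 in limma, where its alternatives ran from 0.0435 to 1. At an unadjusted limma p under 0.05 the block fit held 4 members (12.1%) against 8.87% of all genes, and the fit without it 1 member (3.03%) against 6.66%. Same-numbered mice had r from -0.026 to 0.22 over genes, and 4 of 8 normal-diet mice correlated best with their own number, a hint of pairing. The diets were pair-fed, but the labels do not say which mice this matched or whether the numbers follow it. Whether the numbers pair the mice stays unsettled. The labels name nothing that the numbers share and 3 of the 8 r were under 0.1, so the fit without the block was kept. The cause of the turns was not tested, beyond the array offsets given.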
